A study of Rattus norvegicus with 6 samples.

Results

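Synthesis of nitric oxide, the use of arginine and synthesis of itaconate were followed in LPS-stimulated rat microglia through 7 genes: Nos2, Gch1, Ass1, Asl, Odc1, Oaz1 and Acod1. They were taken by gene name from the 23139 genes listed for each library. All 7 were listed, and all 7 passed the filter on low counts that left 11977 genes for testing. Microglia were shaken off cortical cultures of Wistar rats of postnatal day 1 after 10 days, sorted with beads against CD11b/c, and stimulated from the day after isolation. The LPS group received lipopolysaccharide (LPS, a bacterial membrane component) at 100 ng/ml with the vehicle DMSO, and the LPS/siponimod group received the same LPS with 50 µM siponimod, a modulator of sphingosine-1-phosphate receptors. Both groups therefore carried LPS, and unstimulated cells were not analysed here. Each group held 3 libraries of captured mRNA, called biological replicates in the study's methods. How long the sequenced cells were stimulated and whether cells of several animals were pooled is not given clearly in the sources used here.

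Inducible nitric oxide synthase (iNOS), the product of Nos2, turns arginine into nitric oxide (NO) and citrulline, and it needs tetrahydrobiopterin, a cofactor whose synthesis starts with the enzyme encoded by Gch1. Arginine can also give ornithine, from which ornithine decarboxylase (Odc1) makes the first polyamine, whereas Ass1 and Asl rebuild arginine from citrulline. Acod1 encodes the enzyme that makes itaconate from a metabolite of the citric acid cycle, and both Nos2 and Acod1 are known as genes that LPS induces in macrophages and microglia.

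Levels are normalized counts (CPM) after TMM scaling of the library size, with the SD over n = 3 libraries of a group behind the ± sign. A positive log2 fold change (FC) means a higher level with LPS/siponimod, and its standard error is written SE. A gene was called when its adjusted p in edgeR's quasi-likelihood test was at most 0.05 and its fold change at least 1.5. Depth ran from 38080379 to 46643859 counts per library. The 3 LPS libraries were not equally alike. LPS replicate 3 correlated with LPS replicates 1 and 2 at 0.935 and 0.945 in log CPM over genes, whereas LPS replicates 1 and 2 correlated with each other at 0.983. Since LPS replicate 3 stood apart, values without it are given where they differ in call. Libraries with the same replicate number also deviated from their group means together, so that a second fit, which takes the replicate number into the model (the replicate block), is given where it changed the call of a gene or the counts of a list.

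The sort and the labels name the cells as microglia, and all 10 microglial markers examined had counts in each of the 6 libraries. Their summed level was 7169, 5965 and 3972 CPM in LPS replicates 1 to 3 and 2497, 3559 and 1950 CPM in LPS/siponimod replicates 1 to 3, so that the groups did not overlap. Csf1r, a growth factor receptor of microglia, was the most abundant of them in the mean of each group, at 491 to 3051 CPM, although Itgam lay above it in the third replicate of both groups. Of the 10 markers, 3 were called lower (Aif1, Itgam and Cx3cr1) and 0 higher by the quasi-likelihood test, and with the replicate block 6 were called lower and 1 higher. Among all genes tested, 11.7% were called lower and 13.6% higher, and 16.4% and 17.7% with the block. In bulk libraries, fewer cells of a type and less RNA per cell cannot be told apart. The part of these markers in the results that follow was not tested.

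Markers of other cells were looked at in the same way. The 7 markers of the oligodendrocyte lineage summed to 5.34, 5.37 and 36.0 CPM with LPS and to 11.4, 10.3 and 22.6 CPM with LPS/siponimod, with Mbp as the single one of 3 tested that was called higher. Mbp was the most abundant of them in each library but LPS replicate 3, where Olig1 was. Olig1, a transcription factor of this lineage, had 1, 5 and 515 counts under LPS against 2, 3 and 17 under LPS/siponimod. The 5 neuronal markers summed to 1.67, 1.04 and 11.3 CPM against 4.37, 5.85 and 15.1 CPM, led by Tubb3, the 1 tested, which was not called without the replicate block and was called higher with it (log2 FC 1.59, adjusted p = 0.0316). For the 7 astrocyte markers the sums were 42.5, 21.1 and 24.3 CPM against 27.5, 26.9 and 59.1 CPM, led by Slc1a3, and 0 of 3 tested were called. Within each group the third replicate thus held more of the oligodendrocyte and neuronal transcripts than the others. Border macrophage and monocyte markers (4 listed) summed to 744, 428 and 612 CPM with LPS and 406, 325 and 504 CPM with LPS/siponimod, led by Mrc1 in the mean of the LPS group and by Pf4 in that of the LPS/siponimod group, with Mrc1 called lower of 2 tested and Ccr2, which marks monocytes, at 0 in every library. The 3 endothelial markers summed to 154, 201 and 81.5 CPM against 36.0, 77.8 and 24.2 CPM, led in the mean of each group by Cdh5, with Kdr at 0, and 0 of 2 tested were called without the replicate block but both were called lower with it (log2 FC -1.48 for Cdh5, adjusted p = 0.0142). The 6 fibroblast and mural markers remained between 3.98 and 11.9 CPM per library with Dcn called higher of 5 tested, and the 6 neutrophil markers between 0.560 and 3.34 CPM with S100a8 called lower of 2 tested and Mpo and Elane at 0. The part of these cells in the levels described here was not tested.

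Of the 7 tested genes, Gch1 fell and Asl rose, and the other 5 did not pass the test. The 2 calls make 28.6%, and the share among all 11977 genes was 25.3% (13.6% higher and 11.7% lower), so that the set was called about as often as genes in general. The levels of 3 of the 7 did not overlap between the groups (Nos2 and Asl higher, Gch1 lower), against 49.3% of all genes (25.3% higher and 24% lower). In all 3 pairs of same-numbered libraries, 4 of the 7 were higher and 3 lower, against 35.4% of all genes higher and 35.4% lower, or 70.8% with one direction in all 3 pairs. In the fit with the replicate block, 4 of the 7 were called, Nos2 and Odc1 higher and Ass1 and Gch1 lower, against 34% of all genes (17.7% higher and 16.4% lower). Without LPS replicate 3, the calls were Nos2, Odc1 and Asl higher and Gch1 and Oaz1 lower, against 30.3% of all genes. DESeq2 called Nos2 and Asl higher and Gch1 lower, against 32.5% of all genes, and with no filter the quasi-likelihood test called 0 of the 7 higher and 1 lower, against 8.38% and 6.53%.

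**Figure D1:**
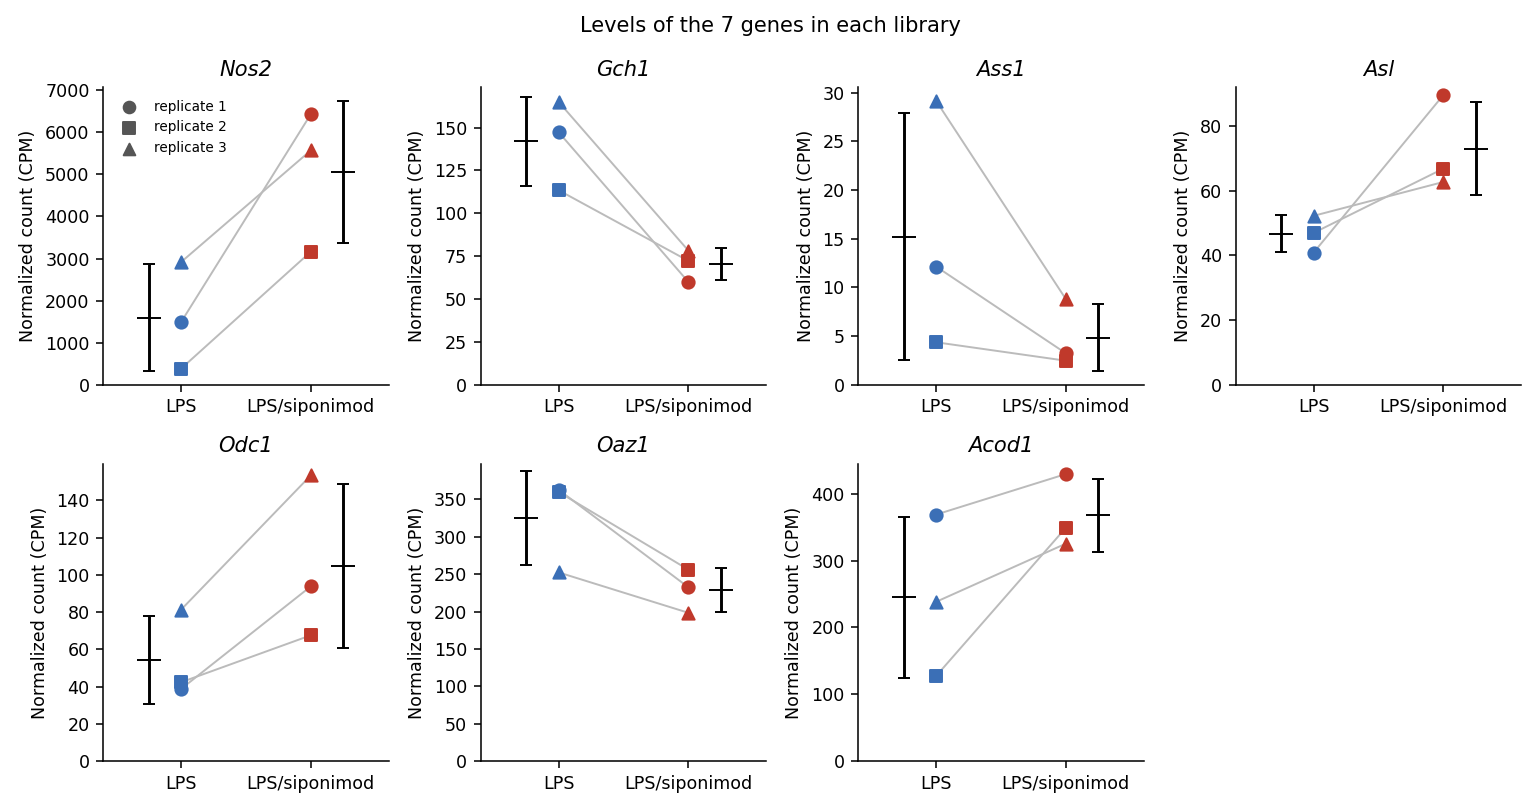
Normalized counts (CPM, linear axes from 0) of the 7 genes in the 3 LPS libraries (blue) and the 3 LPS/siponimod libraries (red), with marker shapes and grey lines joining libraries of the same replicate number, and a black bar for mean ± SD of each group. Nos2 and Asl lie higher and Gch1 lower with LPS/siponimod without overlap, while the other 4 genes overlap.

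Nos2 was counted 55206, 14701 and 108324 times in LPS replicates 1 to 3 and 298832, 141173 and 228443 times in LPS/siponimod replicates 1 to 3. In normalized counts these were 1490, 382 and 2916 CPM against 6432, 3163 and 5572 CPM. All LPS/siponimod libraries lay above all LPS libraries, but LPS replicate 3 came close to LPS/siponimod replicate 2, and the LPS libraries alone spanned a 7.64-fold range. The means were 1596 ± 1270 and 5055 ± 1694 CPM, a ratio of 3.17. This difference did not pass the test (log2 FC 1.66, SE 0.71, 95% interval -0.06 to 3.39, edgeR quasi-likelihood adjusted p = 0.124). Within same-numbered pairs the level was 4.32, 8.29 and 1.91 times as high with LPS/siponimod, and the fit with the replicate block called Nos2 higher (log2 FC 2.04, SE 0.46, adjusted p = 0.0268). DESeq2 called it as well (log2 FC 1.67, adjusted p = 0.0301), and so did edgeR without LPS replicate 3 (log2 FC 2.44, adjusted p = 0.0474). When each of the other 5 libraries was left out, it was not called.

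A single gene took a visible part of these libraries. Nos2 held 0.140%, 0.0384% and 0.284% of all counts in the LPS libraries against 0.641%, 0.326% and 0.588% in the LPS/siponimod libraries. The other NO synthase genes were near or at 0. Nos1, the neuronal synthase, had 0 counts in all 6 libraries, where 3 counts correspond to 0.0646 to 0.0810 CPM. Nos3, the endothelial synthase, had 2, 11 and 0 counts under LPS against 0, 0 and 0 under LPS/siponimod, too few to be tested. In the reference annotation, a lncRNA overlaps Nos2, and whether the counting used the strand is not stated. The counts are of mRNA, and iNOS protein was not measured in them.

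The genes whose level followed Nos2 most closely over the 6 libraries were Zfp704 (Pearson's r of log2 CPM 0.993), Srd5a3 (0.993), the glucose transporter gene Slc2a1 (0.992), Lrif1 (0.992) and the chemokine gene Cxcl3 (0.991). In all, 89 genes had an r above 0.95 with Nos2. None of the 5 was called by the quasi-likelihood test, where Cxcl3 came nearest with a log2 FC of 3.02 (adjusted p = 0.0707). These 6 points share the group difference and the replicate numbers, and the r is a description.

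Gch1 encodes GTP cyclohydrolase I, the rate-limiting enzyme of tetrahydrobiopterin synthesis, and moved in the other direction. Its level was 147, 113 and 165 CPM in the LPS libraries against 60.0, 72.2 and 78.2 CPM in the LPS/siponimod libraries. Every LPS/siponimod library lay below every LPS library. Gch1 fell from 142 ± 26.2 to 70.1 ± 9.32 CPM (log2 FC -1.02, SE 0.18, 95% interval -1.46 to -0.57, edgeR quasi-likelihood adjusted p = 0.0142), and its p-value ranked 341 among the genes with a negative log2 FC. The call was lost in 1 of the 6 fits that left out a library, that without LPS/siponimod replicate 1 (log2 FC -0.92, adjusted p = 0.0642). The mRNA of Nos2 and Gch1 thus stood on opposite sides of 0, higher for the gene of the synthase and lower for that of its cofactor. Of these, the quasi-likelihood test called the lower level of Gch1 alone unless the block was used or LPS replicate 3 was left out.

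The promoter of Gch1 is shown because this gene is the one of the set called lower. It lies on the minus strand of chr15:22917363-22917662 of the GRCr8 assembly (RefSeq), and spans 250 bases before and 50 bases after the annotated start. The counts were mapped to another assembly, mRatBN7.2, so that these positions belong to the reference alone.
Gch1: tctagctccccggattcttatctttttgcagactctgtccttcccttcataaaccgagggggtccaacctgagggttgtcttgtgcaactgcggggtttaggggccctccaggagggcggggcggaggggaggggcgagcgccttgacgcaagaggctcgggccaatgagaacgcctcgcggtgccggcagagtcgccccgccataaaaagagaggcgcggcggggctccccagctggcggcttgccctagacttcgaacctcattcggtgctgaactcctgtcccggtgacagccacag
In this and the other windows, 6 motifs were searched on both strands, and capitals mark a match. They were the NF-kB letters GGG, any 2 bases and TTTCC (in 1.53% of 33469 RefSeq promoter windows of the same length), an interferon-stimulated response element of GAAA, any 2 bases and GAAA (3.92%), the cAMP response element TGACGTCA (1.83%), the E-box CACGTG (6.42%), a C/EBP-ATF element TGATGNAA (3.98%) and the TATA box TATAAA (14.2%). The Gch1 window held none of these letters, which says nothing of other forms of the motifs. Windows were found for 6 of the 7 genes, and that of Nos2 was not used here.

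Other genes of tetrahydrobiopterin and NO synthesis were looked at as a list of 12, of which 10 were listed and 8 tested. In it, 2 genes fell, 0 rose, and the median log2 FC was -0.56, where the median of all genes tested was -0.02. The share called was 25%, next to the 25.3% of all genes, and with the replicate block 3 were called lower and 1 higher (50%, against 34%). Spr, which encodes sepiapterin reductase, the enzyme of the last step to tetrahydrobiopterin, was at 15.9, 16.3 and 9.96 CPM with LPS and at 5.64, 8.76 and 6.17 CPM with LPS/siponimod. The groups did not overlap, and Spr fell by 1.03 on the log2 scale (SE 0.27, edgeR quasi-likelihood adjusted p = 0.0363). Nos1ap, an adaptor of the neuronal synthase, fell from 4.64 ± 2.36 to 0.817 ± 0.487 CPM (log2 FC -2.50, adjusted p = 0.0270 by the same test). Both calls were lost without LPS replicates 1 or 2 or LPS/siponimod replicates 1 or 3 (adjusted p up to 0.138 for Spr and 0.117 for Nos1ap), and without LPS/siponimod replicate 2 the log2 FC of Nos1ap was -3.09.

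Pts, the enzyme between the products of Gch1 and Spr, was at 6.18 ± 0.703 and 5.85 ± 1.29 CPM (log2 FC -0.08, adjusted p = 0.815), and Qdpr, which recycles the cofactor, at 13.9 ± 0.793 and 13.4 ± 2.15 CPM (adjusted p = 0.827, edgeR quasi-likelihood test for both). Gchfr encodes the feedback regulator that binds GTP cyclohydrolase I. It was scarce, with 36, 41 and 15 counts under LPS against 7, 17 and 0 under LPS/siponimod. Although LPS/siponimod replicate 2 was close to LPS replicate 3, the CPM of the groups did not overlap (log2 FC -2.17, quasi-likelihood adjusted p = 0.161). With a library left out, the log2 FC of Gchfr ran from -3.35 without LPS/siponimod replicate 2 to -1.60 without LPS/siponimod replicate 3. It was not called in these fits. The genes of the first and the last enzyme of the route were therefore called lower, and that of the enzyme between them was not. A difference between these genes was not tested.

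Argininosuccinate synthase (Ass1) and argininosuccinate lyase (Asl) act in sequence to return citrulline to arginine, and their genes lay in opposite directions. Ass1 was at 12.1, 4.36 and 29.2 CPM with LPS and at 3.23, 2.46 and 8.80 CPM with LPS/siponimod. LPS replicate 3 was by far the highest, LPS replicate 2 lay below LPS/siponimod replicate 3, and the groups overlapped. With means of 15.2 ± 12.7 and 4.83 ± 3.46 CPM, Ass1 did not pass the test (log2 FC -1.66, SE 0.79, 95% interval -3.56 to 0.25, edgeR quasi-likelihood adjusted p = 0.157). In each pair it was lower with LPS/siponimod, at 0.266, 0.565 and 0.302 times the LPS level, and it was called lower with the replicate block (log2 FC -1.50, SE 0.26, adjusted p = 0.0135). Without LPS replicate 3 the log2 FC shrank to -0.77 (adjusted p = 0.417).

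Asl was at 40.9, 47.0 and 52.3 CPM with LPS and at 89.6, 66.9 and 62.8 CPM with LPS/siponimod. The lowest LPS/siponimod library lay above the highest LPS library, and the coefficient of variation of the LPS libraries, 12.2%, was the smallest of the 7 genes. Asl rose from 46.7 ± 5.71 to 73.1 ± 14.5 CPM (log2 FC 0.65, SE 0.18, 95% interval 0.22 to 1.08, edgeR quasi-likelihood adjusted p = 0.0403). The fold change was 1.56 and thus close to the limit of 1.5. The call was lost with the replicate block (log2 FC 0.63, adjusted p = 0.0574), with no filter (0.64, adjusted p = 0.0575), and in 5 of the 6 fits that left out a library (log2 FC 0.47 to 0.75, adjusted p up to 0.125), whereas it held without LPS replicate 3 (0.74, adjusted p = 0.0363). In the annotation, Asl overlaps Crcp and Ass1 overlaps a snoRNA, and how reads of overlapping genes were divided is not stated.

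The promoter of Asl, the one gene of the set called higher, is on the plus strand of chr12:32295658-32295957 (GRCr8, RefSeq).
Asl: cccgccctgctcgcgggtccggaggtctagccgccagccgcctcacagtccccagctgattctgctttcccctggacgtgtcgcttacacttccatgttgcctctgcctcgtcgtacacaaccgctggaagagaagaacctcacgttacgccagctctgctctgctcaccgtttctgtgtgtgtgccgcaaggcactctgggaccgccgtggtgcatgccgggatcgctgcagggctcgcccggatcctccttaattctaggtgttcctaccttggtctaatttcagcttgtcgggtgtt
It held none of the 6 motifs. The Ass1 window (plus strand of chr3:35149480-35149779) held the TATA letters once on the opposite strand, starting 60 bases before the annotated start.

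**Figure D2:**
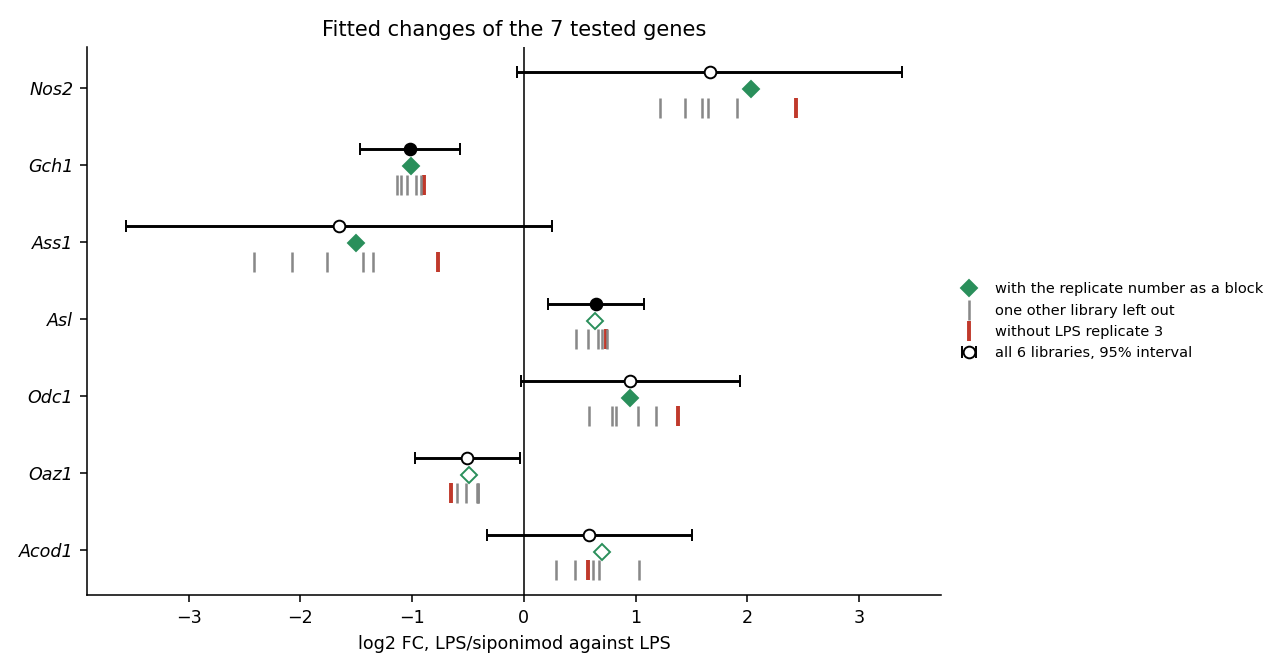
Log2 FC of LPS/siponimod against LPS for the 7 tested genes. Circles with bars are the fit to all 6 libraries with its 95% interval, diamonds the fit with the replicate block (both filled where called), and ticks the 6 fits that leave out 1 library, red without LPS replicate 3. Gch1 and Asl are filled among the circles, and Nos2, Gch1, Ass1 and Odc1 among the diamonds, while no gene has ticks on both sides of 0.

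Genes for the uptake and further use of arginine were looked at as lists. Of 10 genes for arginine transport and methylarginine handling, 7 were tested, 2 rose and 0 fell, with a median log2 FC of 0.13 (28.6% called, against 25.3% of all genes). Slc7a1 encodes the cationic amino acid transporter CAT1 and had 372, 546 and 881 counts under LPS against 6911, 7272 and 9042 under LPS/siponimod. It rose from 16.0 ± 7.01 to 177 ± 38.0 CPM, an 11.1-fold difference of means (log2 FC 3.47, SE 0.37, edgeR quasi-likelihood adjusted p = 0.00581). Slc3a2, the heavy chain with which several amino acid transporters form dimers, rose from 314 ± 53.7 to 1368 ± 357 CPM (log2 FC 2.12, SE 0.26, adjusted p = 0.00705 by the same test). Both were called in all 6 fits that left out a library. Slc7a2, which encodes CAT2, the transporter linked to iNOS in activated macrophages, had 8566, 4090 and 19220 counts under LPS against 17681, 9592 and 13981 under LPS/siponimod. Its groups overlapped, with LPS replicate 3 the highest of all (log2 FC 0.13, edgeR quasi-likelihood adjusted p = 0.877). Without that library its log2 FC was 0.89 (adjusted p = 0.147), whereas without LPS replicate 2 it turned to -0.24, and Slc7a2 was not called in either fit. The 2 cationic transporters were called differently, but the difference between them was not tested. With the replicate block, 3 genes of the list were called higher and 1 lower (57.1%, against 34% of all genes).

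Of 15 genes of the urea cycle and of ornithine and creatine metabolism, 11 were tested, 2 rose and 1 fell, with a median log2 FC of 0.02 (27.3% called, against 25.3% of all genes), and with the replicate block 2 were called in each direction (36.4%, against 34% of all genes). Aldh18a1, the enzyme that leads from glutamate towards ornithine and proline, rose from 9.92 ± 1.45 to 26.1 ± 1.90 CPM (log2 FC 1.40, SE 0.16, edgeR quasi-likelihood adjusted p = 0.00647) and was called whichever library was left out. Gatm makes the creatine precursor from arginine and glycine. Its level was 86.6, 67.4 and 41.5 CPM with LPS and 1.64, 12.3 and 3.44 CPM with LPS/siponimod, without overlap, and it fell by 3.49 on the log2 scale (SE 0.78, quasi-likelihood adjusted p = 0.0238). Slc6a8, the creatine transporter, rose from 7.74 ± 3.58 to 29.2 ± 16.0 CPM although its groups overlapped (log2 FC 1.91, quasi-likelihood adjusted p = 0.0485). Gatm lost its call without LPS replicates 1 or 2 or LPS/siponimod replicates 1 or 3 (adjusted p up to 0.0836), with a log2 FC of -4.70 without LPS/siponimod replicate 2. Slc6a8 lost its call in all fits but that without LPS/siponimod replicate 2 (adjusted p up to 0.165). Oat, which turns ornithine into a precursor of proline and glutamate, was at 62.7 ± 2.93 and 64.9 ± 5.43 CPM (log2 FC 0.05, adjusted p = 0.763). The liver enzymes of the urea cycle were near or at 0, with 1, 0, 0 counts with LPS and 1, 0, 1 with LPS/siponimod for Otc and 0 in every library for Cps1.

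Odc1, ornithine decarboxylase, starts polyamine synthesis, and Oaz1 encodes antizyme, the protein that binds it and directs it to the proteasome. Odc1 was at 38.8, 42.4 and 81.4 CPM with LPS and at 93.9, 67.6 and 153 CPM with LPS/siponimod. Only LPS replicate 3 reached into the range of the other group, lying above LPS/siponimod replicate 2. The means were 54.2 ± 23.6 and 105 ± 44.0 CPM, and the difference did not pass the test (log2 FC 0.95, SE 0.40, 95% interval -0.03 to 1.93, edgeR quasi-likelihood adjusted p = 0.122). Within pairs Odc1 was 2.42, 1.59 and 1.89 times as high with LPS/siponimod. It was called higher with the replicate block (log2 FC 0.95, SE 0.15, adjusted p = 0.0118) and without LPS replicate 3 (log2 FC 1.38, adjusted p = 0.0406).

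Oaz1 was at 363, 360 and 252 CPM with LPS and at 233, 256 and 198 CPM with LPS/siponimod. Again LPS replicate 3 was the library that overlapped, lying just below LPS/siponimod replicate 2. The means were 325 ± 62.9 and 229 ± 29.0 CPM (log2 FC -0.50, SE 0.20, 95% interval -0.98 to -0.03, edgeR quasi-likelihood adjusted p = 0.0976). In every pair Oaz1 was lower with LPS/siponimod, at 0.641, 0.712 and 0.786 times the LPS level. With the replicate block its adjusted p was 0.0420, but its log2 FC of -0.49 was under the fold limit, and without LPS replicate 3 it was called lower (log2 FC -0.66, adjusted p = 0.0286).

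**Figure D3:**
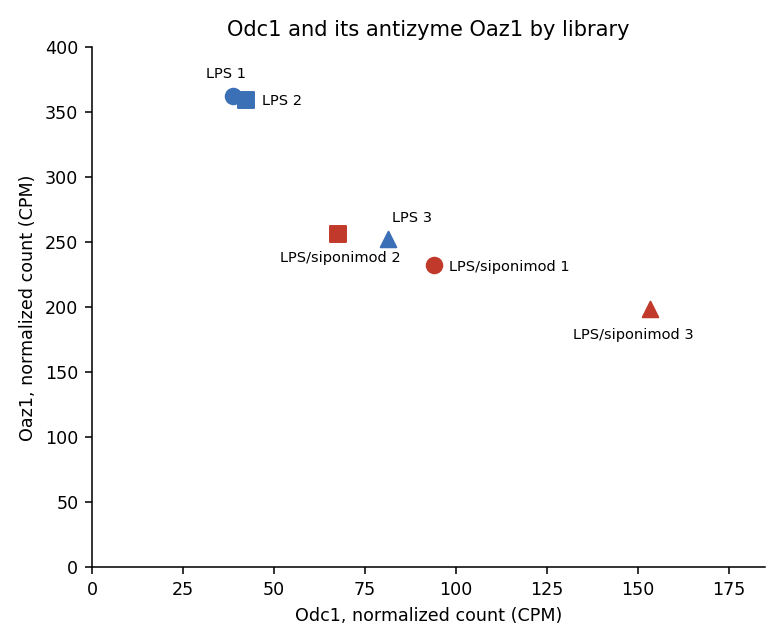
Level of Oaz1 (vertical, CPM) against that of Odc1 (horizontal, CPM) in each of the 6 libraries, blue for LPS and red for LPS/siponimod, with the replicate number beside each point. Ordered from the lowest to the highest Odc1, the libraries are in the reverse order of Oaz1, and LPS replicate 3 lies among the LPS/siponimod libraries.

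Ordered by Odc1 from low to high, the libraries were LPS replicates 1 and 2, LPS/siponimod replicate 2, LPS replicate 3, and LPS/siponimod replicates 1 and 3, and the order by Oaz1 was the exact reverse. Over the 6 libraries the log2 CPM of the pair had an r of -0.981, and of -0.969 after the group means were taken off. The points share the group difference and the replicate numbers, so that both values are descriptions. The closest followers of Odc1 were Adam1a (r 0.999), Cfdp1 (0.997), Klf12 (0.997), Dusp4 (0.995) and Uck2 (0.994), out of 172 genes above 0.95. None of these 5 was called.

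The promoters of Odc1 and Oaz1 are shown together because the levels of these genes stood in reverse order. Odc1 lies on the plus strand of chr6:46058415-46058714 and Oaz1 on the minus strand of chr7:9536941-9537240 (GRCr8, RefSeq).
Odc1: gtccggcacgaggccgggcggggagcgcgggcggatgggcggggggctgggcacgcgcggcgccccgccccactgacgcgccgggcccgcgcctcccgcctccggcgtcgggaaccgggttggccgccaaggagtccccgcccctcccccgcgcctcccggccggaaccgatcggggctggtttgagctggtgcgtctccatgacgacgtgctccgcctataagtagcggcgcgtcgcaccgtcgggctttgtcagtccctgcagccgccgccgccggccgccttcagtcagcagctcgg
Oaz1: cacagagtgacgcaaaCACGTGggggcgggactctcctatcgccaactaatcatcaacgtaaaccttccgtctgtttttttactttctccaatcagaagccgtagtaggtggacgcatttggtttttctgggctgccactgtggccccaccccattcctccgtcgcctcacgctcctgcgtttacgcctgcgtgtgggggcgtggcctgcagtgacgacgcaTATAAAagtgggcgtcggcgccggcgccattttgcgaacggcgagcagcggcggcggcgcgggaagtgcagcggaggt
The Oaz1 window held the E-box letters CACGTG at 234 bases and the TATA letters TATAAA at 28 bases before the annotated start. The Odc1 window held none of the 6 motifs as searched. In the annotation a snoRNA overlaps Odc1, and no gene overlaps Oaz1.

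Beyond Odc1 and Oaz1, of 16 genes for polyamine synthesis, turnover and hypusine, 15 were tested, 4 rose and 2 fell, with a median log2 FC of 0.36 (40% called, against 25.3% of all genes), and with the replicate block 4 were called higher and 3 lower (46.7%, against 34%). Sms, spermine synthase, had 342, 339 and 503 counts under LPS against 3016, 1446 and 2851 under LPS/siponimod and rose from 10.5 ± 2.62 to 55.6 ± 20.2 CPM (log2 FC 2.40, SE 0.34, edgeR quasi-likelihood adjusted p = 0.00853). Sat1, the acetyltransferase that starts the breakdown of spermidine and spermine, rose from 189 ± 41.9 to 764 ± 137 CPM (log2 FC 2.02, SE 0.24, adjusted p = 0.00655 by the same test). Smox, spermine oxidase, rose from 25.9 ± 8.87 to 129 ± 42.0 CPM (log2 FC 2.32, adjusted p = 0.00913). Dohh, which completes hypusine on the translation factor eIF5A, rose from 35.2 ± 3.43 to 68.3 ± 11.3 CPM (log2 FC 0.96, adjusted p = 0.0113).

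Oaz2, a further antizyme gene, fell from 41.4 ± 5.67 to 19.7 ± 1.57 CPM without overlap of the groups (log2 FC -1.07, SE 0.15, edgeR quasi-likelihood adjusted p = 0.00779). Atp13a2, a lysosomal polyamine exporter, fell from 698 ± 23.0 to 335 ± 133 CPM (log2 FC -1.06, adjusted p = 0.0381). Sms, Sat1, Smox and Oaz2 were called in all 6 fits that left out a library. Dohh lost its call without LPS replicate 2 (adjusted p = 0.0578), and Atp13a2 kept it in 1 of the 6 fits, that without LPS/siponimod replicate 2 (adjusted p up to 0.150). Srm, spermidine synthase, was at 31.2 ± 9.97 and 26.9 ± 2.40 CPM (adjusted p = 0.536), Amd1, which supplies the aminopropyl groups, at 57.4 ± 7.77 and 52.3 ± 4.03 CPM (adjusted p = 0.489), and Azin1, the antizyme inhibitor, at 94.2 ± 23.3 and 125 ± 24.4 CPM (adjusted p = 0.220, quasi-likelihood test for all). These 3 did not pass the test.

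Acod1, also known as Irg1, was at 369, 127 and 238 CPM with LPS and at 429, 349 and 325 CPM with LPS/siponimod. LPS replicate 1 lay within the range of the LPS/siponimod libraries, and the other LPS libraries lay below all of them. Means were 245 ± 121 and 368 ± 54.5 CPM, a ratio of 1.503 (log2 FC 0.59, SE 0.38, 95% interval -0.33 to 1.501, edgeR quasi-likelihood adjusted p = 0.274). Acod1 was 1.16, 2.74 and 1.36 times as high with LPS/siponimod within pairs, and with the replicate block it still did not pass (log2 FC 0.70, adjusted p = 0.103). With a library left out, the log2 FC ran from 0.29 without LPS replicate 2 to 1.03 without LPS replicate 1, and it was not called. The LPS/siponimod libraries were the closer to each other, spanning a 1.32-fold range against 2.89-fold with LPS. A lncRNA overlaps Acod1 in the annotation. Its promoter window (plus strand of chr15:86286289-86286588, GRCr8) held the TATA letters at 147 bases before and 11 bases after the annotated start.

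The genes that followed Acod1 most closely were Gng8 (r 0.992), Zfp14 (0.987), Mras (0.983), Atp5if1 (0.982) and a second listed copy of the glycolytic gene Aldoa (0.980), out of 14 above 0.95, and none was called. Of 18 genes for itaconate precursors, carriers and removal, 17 were tested, 1 rose and 3 fell, with a median log2 FC of -0.42 and 15 of the 17 below 0 (23.5% called, against 25.3% of all genes, of which 6138 of 11977 lay below 0), and with the replicate block 1 was called higher and 4 lower (29.4%, against 34% of all genes). Idh1, the cytosolic isocitrate dehydrogenase, rose from 123 ± 91.8 to 530 ± 48.5 CPM without overlap (log2 FC 2.11, SE 0.61, edgeR quasi-likelihood adjusted p = 0.0466). Suclg2 (log2 FC -0.97, adjusted p = 0.00980) and Idh3a (log2 FC -0.99, adjusted p = 0.0244), both of the citric acid cycle, and the carrier gene Slc25a11 (log2 FC -0.63, adjusted p = 0.0490) fell. Cs, citrate synthase, was at 194 ± 31.5 and 148 ± 5.90 CPM (log2 FC -0.39, adjusted p = 0.104). Idh1 kept its call without LPS replicate 1 or LPS replicate 3 alone (adjusted p up to 0.157 in the other fits), with a log2 FC of 2.83 without the first of these, Idh3a lost it without LPS replicate 2 or LPS/siponimod replicates 1 or 3 (up to 0.106), Slc25a11 also without LPS replicate 1 (up to 0.177), and Suclg2 without LPS replicate 2 or LPS/siponimod replicate 1 (up to 0.0529).

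**Figure D4:**
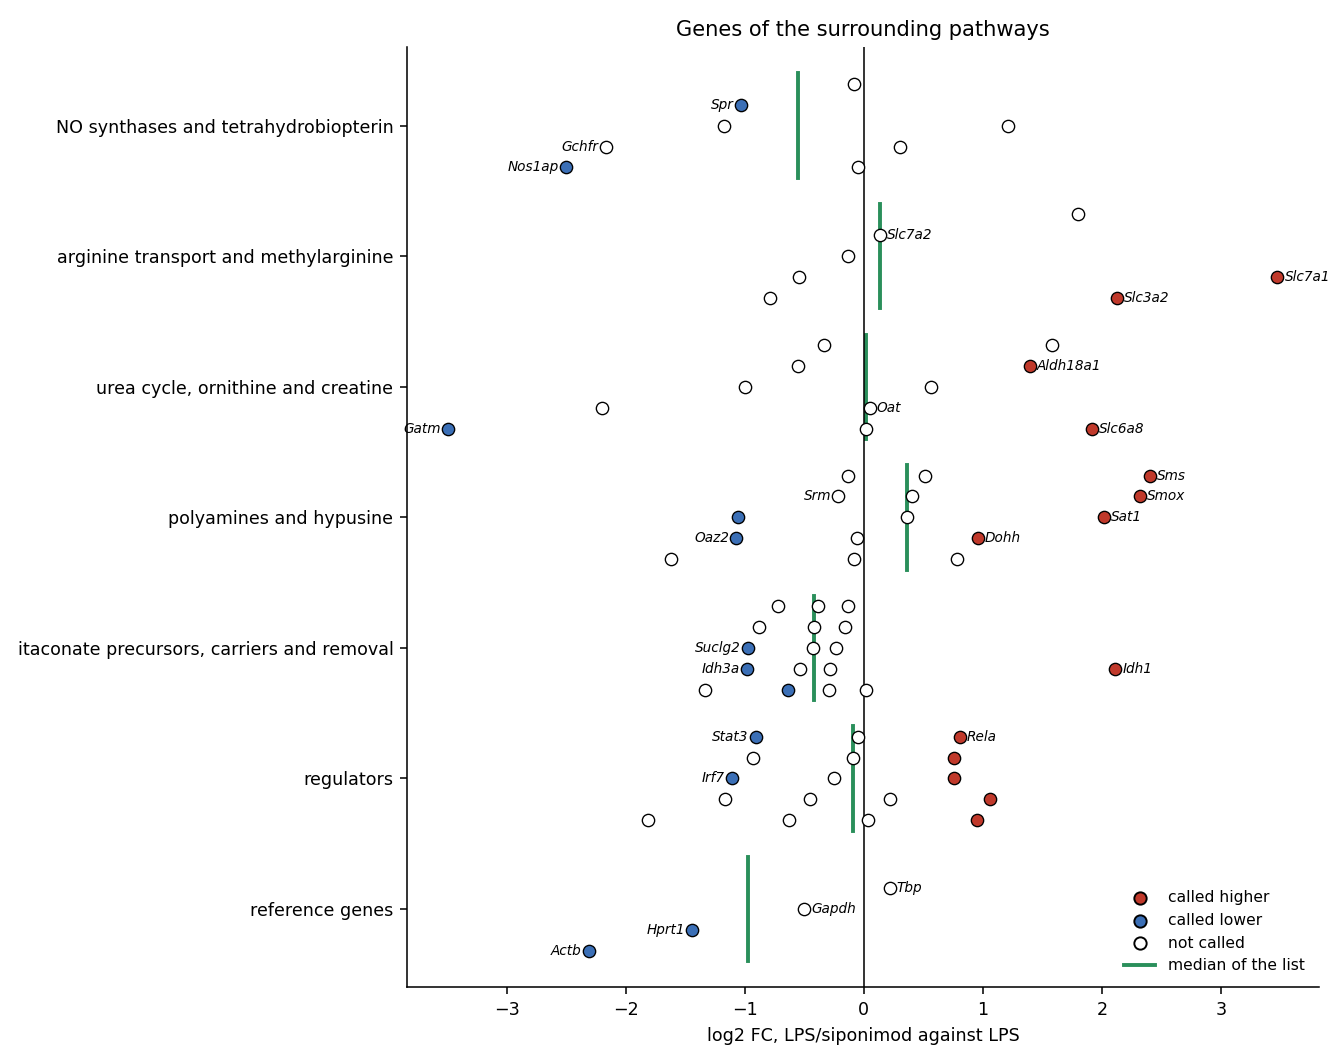
Log2 FC of the tested genes of 6 pathway lists and of the reference genes (horizontal), 1 point per gene, red where called higher, blue where called lower and open where not called, with a green line at the median of each list. The points of each list are spread vertically for legibility alone. Slc7a1, Sms, Smox, Slc3a2 and Idh1 lie furthest to the right, and Gatm furthest to the left.

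To compare related genes without any scaling of the libraries, ratios of counts were taken within each library, as the difference of log2(count + 2). Their size depends on transcript length, and the difference between the groups is what they show. With 3 libraries against 3, no p under 0.10 can be reached.

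Nos2 over Ass1, the synthase and the gene that returns its product to arginine, was 6.93, 6.43 and 6.64 under LPS against 10.94, 10.30 and 9.30 under LPS/siponimod. The 3 LPS libraries lay within a narrow band although Nos2 itself varied 7.64-fold among them, and the groups were far apart. The mean log2 ratio was 3.51 higher with LPS/siponimod (6.67 ± 0.25 against 10.18 ± 0.83, exact two-sided permutation test p = 0.10, adjusted 0.20 over 3 ratios). Odc1 over Oaz1 was -3.22, -3.08 and -1.63 against -1.31, -1.92 and -0.37, a difference of 1.45 with overlap through LPS replicate 3 (exact permutation p = 0.20, adjusted 0.20). Acod1 over Nos2 was -2.01, -1.58 and -3.61 against -3.90, -3.18 and -4.10, a difference of -1.32, and LPS replicate 3 was again in the range of the other group (exact permutation p = 0.20, adjusted 0.20). All 3 differences kept their direction whichever library was left out.

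**Figure D5:**
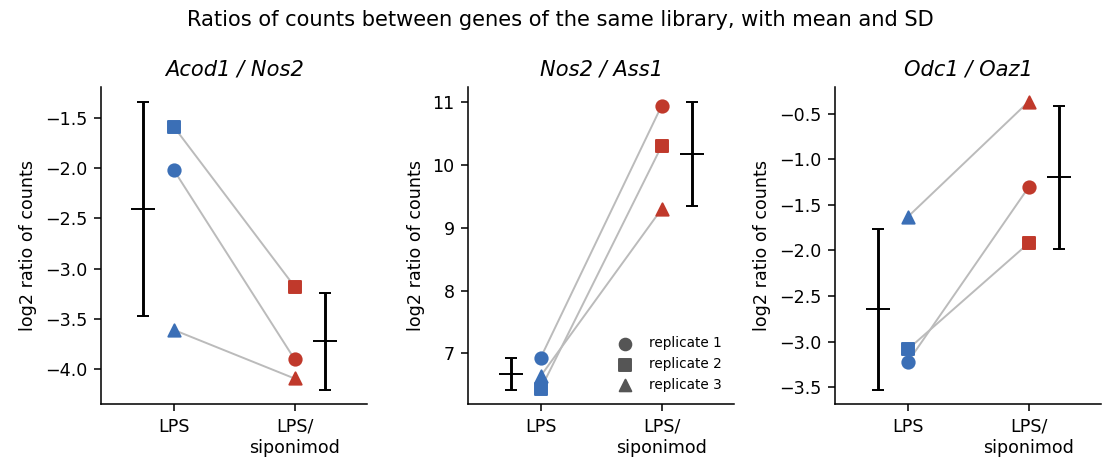
Log2 ratio of the counts of 2 genes within each library (vertical axes not starting at 0), blue for LPS and red for LPS/siponimod, with lines joining libraries of the same replicate number and black bars for mean ± SD. Nos2 over Ass1 separates the groups, whereas Acod1 over Nos2 and Odc1 over Oaz1 overlap through LPS replicate 3.

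Of 18 genes known as regulators of Nos2, Acod1 and related genes, 17 were tested, 5 rose and 2 fell, with a median log2 FC of -0.10 (41.2% called, against 25.3% of all genes). Among the NF-kB subunits, Rela rose from 68.3 ± 4.64 to 119 ± 8.52 CPM (log2 FC 0.80, SE 0.12, edgeR quasi-likelihood adjusted p = 0.00886). Stat6, a factor that acts downstream of interleukin-4, rose from 234 ± 14.9 to 395 ± 44.4 CPM (log2 FC 0.76, adjusted p = 0.0157), and Nfe2l2, which encodes NRF2, from 115 ± 16.7 to 194 ± 25.5 CPM (log2 FC 0.75, adjusted p = 0.0223). The other 2 that rose were Cebpb (log2 FC 0.95, adjusted p = 0.0321) and Rel (log2 FC 1.06, adjusted p = 0.0380), and when libraries were left out Cebpb was called in 2 and Rel in 1 of the 6 fits (adjusted p up to 0.114 for each). Stat3 fell from 229 ± 15.8 to 122 ± 10.1 CPM (log2 FC -0.91, adjusted p = 0.00834) and was called whichever library was left out. Irf7, an interferon regulatory factor, fell by 1.11 on the log2 scale (adjusted p = 0.0304). Irf1, known as needed for Nos2 induction, was at 41.9 ± 16.6 and 48.6 ± 6.47 CPM and did not pass (log2 FC 0.22, adjusted p = 0.631). Rela lost its call without LPS replicate 2 (adjusted p = 0.0508), Stat6 without LPS replicate 2 or LPS/siponimod replicate 1 (up to 0.0734), Nfe2l2 also without LPS/siponimod replicate 3 (up to 0.0955), and Irf7 in 4 of the 6 fits, those without LPS replicates 1 or 2 or LPS/siponimod replicates 1 or 3 (up to 0.119). With the replicate block, 5 genes of the list were called higher and 6 lower (64.7%, against 34% of all genes).

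Over the 6 lists together, 75 of 89 genes were tested, 14 rose and 10 fell, which makes 32% called against 25.3% of all genes. All 24 were called with the replicate block too, and 8 of them (Slc7a1, Slc3a2, Aldh18a1, Sms, Sat1, Smox, Oaz2 and Stat3) whichever library was left out. The matching shares among all called genes were not worked out, so that these counts show nothing particular to the lists.

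Of 4 transcripts often used as references for measuring such genes by PCR, 2 fell (50%, against 11.7% of all genes called lower). Actb was at 11782, 14425 and 10851 CPM with LPS and at 1455, 4169 and 1841 CPM with LPS/siponimod and fell by 2.31 on the log2 scale (SE 0.46, edgeR quasi-likelihood adjusted p = 0.0174). Hprt1 fell by 1.44 (adjusted p = 0.0169). Gapdh was at 3955 ± 560.4 and 2790.5 ± 119 CPM without overlap (log2 FC -0.50, adjusted p = 0.0990), and Tbp at 10.2 ± 0.217 and 11.9 ± 0.750 CPM (log2 FC 0.22, adjusted p = 0.257). Actb lost its call without LPS replicate 2 or LPS/siponimod replicates 1 or 3 (adjusted p up to 0.0708) and had a log2 FC of -2.92 without LPS/siponimod replicate 2, and Hprt1 without LPS replicate 2 or LPS/siponimod replicate 1 (up to 0.0686). The study's methods list a transcript named Odc among the references tried and Gapdh as the one used. Odc1 was higher with LPS/siponimod in every pair, as 35.4% of all genes were, and did not pass the quasi-likelihood test (adjusted p = 0.122).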

How the data were processed

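The deposited values are raw counts of reads per gene, 1 table per library, which the authors made by converting and demultiplexing single-end reads with bcl2fastq (version 2.20.0.422, per the labels), trimming them and mapping them to the rat genome (mRatBN7.2) in the CLC Genomics Workbench. How reads of overlapping or near-identical genes were divided, and whether strand was used, is not stated. In 1 table, 1 row without a name was left out, which held 0 counts. Floors of 3 counts cover counting error only, since the reads carry no molecular identifiers.

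The analysis used R 4.3.3 and edgeR 4.0.16, with these steps: filterByExpr by group (minimum count 10, minimum total 15), TMM factors (0.939 to 1.056), glmQLFit and glmQLFTest with the group as the only term, and Benjamini-Hochberg adjustment over 11977 genes. For a call, the adjusted p had to be 0.05 or less and the fold change 1.5 or more. The study's methods call the libraries biological replicates, but nothing says that each came from its own animals, so that p-values measure the spread between these samples. The members, the gene lists, the tests and the rule for named genes were chosen with earlier results of these data known. Named are all 7 members, a fixed set of pathway genes and, of each pathway list, up to 3 called genes per direction with the smallest adjusted p. Mrc1, Mbp, Dcn, S100a8, Olig1, Rel, Cebpb, Dohh, Qdpr, Aif1, Itgam and Cx3cr1 were named outside this rule, after their values were seen.

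Same-numbered libraries correlated at 0.420, 0.545 and 0.611 in their deviations from the group means over genes, and other pairs at -0.534 to 0.086. The numbers were therefore taken to pair the libraries, on these values and on no statement of the labels. Alternatives were this replicate block, DESeq2 (version 1.42.0), limma-voom (version 3.58.1), the likelihood ratio test, RLE scaling, 2 other filters and each library left out. Under TMM, RLE and DESeq2 scaling alike, the median gene had a log2 FC of -0.02. The quasi-likelihood test, the likelihood ratio test, limma-voom and DESeq2 were tested on simulated counts with known changes and without replicate pairs. The replicate block and the other alternatives were not tested in this way. DESeq2 and the likelihood ratio test called more unchanged genes than the quasi-likelihood test and limma-voom did but also recovered more of the changed ones. The quasi-likelihood test missed most of the smaller changes. Promoter windows came from RefSeq (GRCr8), where 6 of the 7 members matched. Of the genes and ratios planned, 2 genes of the set, 1 of a pathway list and 1 count ratio are not reported here and entered no count of a list.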

Additional observations from a re-analysis of the deposited data

How the results depend on the processing

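The replicate block called 2 members higher and 2 lower in place of 1 and 1, with log2 FC of 2.04 for Nos2, -1.50 for Ass1 and 0.95 for Odc1 now past the thresholds and 0.63 for Asl no longer. It changed no other member's call. DESeq2 called 2 members higher (Nos2 1.67). With no filter, edgeR's quasi-likelihood test called 0 higher (Asl 0.64), with 3 at an unadjusted p under 0.05. RLE scaling, limma-voom, the likelihood ratio test and a minimum mean of 1 CPM changed no member's call. With a library left out, 0 to 3 members were called higher and 0 to 2 lower (at an unadjusted p under 0.05, 1 to 3 higher and 1 to 2 lower). The share of all genes at an unadjusted p under 0.05 was not worked out for these fits or for that with no filter. The member counts at that limit are therefore descriptions. Log2 FC then ran from 1.22 to 2.44 for Nos2, -2.41 to -0.77 for Ass1, 0.47 to 0.75 for Asl, -1.14 to -0.89 for Gch1, 0.58 to 1.38 for Odc1, -0.66 to -0.41 for Oaz1 and 0.29 to 1.03 for Acod1. Over all genes these fits called 469 to 1941 higher and 182 to 1772 lower, and of the pathway lists 6 to 13 higher and 2 to 17 lower. The fewest were called without LPS replicate 2 (469 and 182) and the most without LPS replicate 3. Pathway genes called lower were 21 with DESeq2 and 19 with the likelihood ratio test and with the block, against 10, where all genes called lower were 1924, 1738 and 1960 in these fits, against 1403. The cause of these differences was not tested. Fits that leave a library out hold fewer samples, and that without LPS replicate 3 called 1941 genes higher and 1772 lower, against 1633 and 1403 in the main fit. All 3 count ratios kept their direction with 0.5 counts added, the block or a library left out. Depth limits the precision of scarce genes such as Gchfr (0 to 41 counts in a library), and its part in their calls was not tested.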
